A study of Mus musculus with 6 samples.

Results

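The mitochondrial ribosomal protein genes were examined in spermatogonia, the dividing germ cells from which sperm arise, after constitutive overexpression of ID4. They were taken as every entry of the deposited expression table whose symbol begins with Mrpl or Mrps followed by a digit and whose position lies outside chromosome 15, which gave 75 genes of 23355 entries. The authors tested all 75 of them. The cells came from mice that overexpress ID4 in germ cells (3 samples) and from control mice (3 samples), and were selected in both groups for a green fluorescent ID4 reporter. Age, strain and the promoter that drives the transgene are not given for these samples in the sources used here. The table holds 1 FPKM value per group (fragments scaled by transcript length and by library size), combined by the authors over the 3 samples, so no replicate SD can be given and the depth of each library is unknown. The p-values and q-values (p-values adjusted over all tested genes) are those of the authors' deposited table, which has the layout of a Cuffdiff comparison, and a gene was called at q of 0.05 or less. Nothing in the labels says whether the samples of a group are separate animals, so these values compare the 2 groups of samples as they are.

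Mitochondria carry their own ribosome, which translates the few proteins encoded by mitochondrial DNA, all of them subunits of the respiratory chain and of ATP synthase. Its RNA comes from the mitochondrial genome, and every one of its proteins is encoded in the nucleus, made in the cytosol and imported. Some of the proteins descend from those of bacterial ribosomes, and others were gained by mitochondria. Spermatogonial stem cells are commonly described as relying more on glycolysis than their differentiating progeny do. ID4 binds basic helix-loop-helix transcription factors and keeps them from DNA.

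The group as a whole lay at nearly the same level in both groups of samples. Its summed level was 9469.5 FPKM with ID4 overexpression and 9492.2 FPKM in controls, a ratio of 0.998. The ratio was 0.975 without the 5 most abundant members, and 0.972 with each group divided by its median over tested genes. By mean level it was 1.077 under 50 FPKM, 0.933 from 50 to 150 FPKM and 1.018 over 150 FPKM. Of the 75 genes, 1 was called higher (Mrpl39) and 1 lower (Mrps30), which is 2.67%, while 17.0% of all 10990 tested genes were called, 9.59% higher and 7.42% lower. At a q of 0.01 or less, 1.33% of the 75 were called against 10.1% of all tested genes, and at 0.1 or less 6.67% against 22.1%. Among the 7162 tested genes whose mean FPKM fell within the range of the 75 genes (5.80 to 511 FPKM), 15.7% were called. Within this range their levels were not matched to those of the 75. The median log2 fold change, overexpression over control, was -0.04 over the 75 genes and 0.01 over all tested genes, with 33 of the 75 above 0 and 42 below. The tested genes set beside the 75 include chromosome 15, which the 75 leave out. Without that chromosome the median of all tested genes was 0.03, and the shares called were not computed. An uncalled gene is not thereby shown to have equal levels, and no interval for its difference can be computed from 1 value per group.

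The differences were also small in size. In 61 of the 75 genes (81.3%) the log2 fold change lay within 0.25 of 0, against 56.1% of tested genes in the same range of levels and 49.9% of all tested genes. For 26 genes (34.7%) it lay within 0.1 of 0, against 24.9% of tested genes in that range. Only Mrpl39 and Mrps12 lay above 0.5, and only Mrps30, Mrps26 and Mrps24 lay below -0.5. The SD of the log2 fold change over genes was 0.23 for the 75, and 0.44 for tested genes of the same range; genes are not replicates, and these SDs describe only how widely the genes scatter. At an unadjusted p of 0.05 or less in the authors' deposited table, 9 of the 75 genes passed, 3 higher and 6 lower, against 28.2% of all tested genes and 26.4% of those in the same range of levels. Across the tested genes of that range, the smallest absolute log2 fold change among called genes was 0.44, and 276 called genes had a smaller one than Mrpl39.

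**Figure D1:**
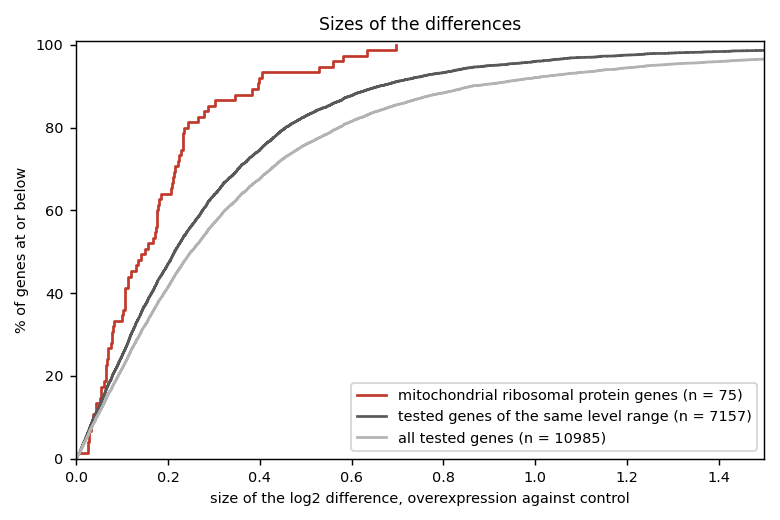
Percentage of genes (vertical axis) whose absolute log2 difference between ID4 overexpression and control is at or below the value on the horizontal axis, for the 75 mitochondrial ribosomal protein genes, for tested genes in the same range of mean FPKM and for all tested genes. The curve of the 75 genes reaches 81.3% at a difference of 0.25, where tested genes of the same range reach 56.1%, and the axis ends at 1.5, which leaves 378 other tested genes outside it.

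Levels differed widely within the group. FPKM ran from 4.43 to 536 with overexpression and from 7.18 to 485 in controls, with medians of 85.4 and 89.7. The levels of the genes were closely correlated between the 2 groups of samples: Pearson's r of log2 FPKM across the 75 genes was 0.985. This is a description only, since all genes share the same libraries. By rank, neither the log2 fold change (Spearman's rho 0.01 across the 75 genes) nor its size (rho -0.13) followed the level closely. The largest differences nevertheless lay at low levels. The 21 genes with a mean under 50 FPKM ran from -0.70 to 0.58. The 30 genes from 50 to 150 FPKM ran from -0.40 to 0.26, and the 24 genes over 150 FPKM from -0.23 to 0.24. In both groups 12 genes exceeded 200 FPKM and 8 stayed under 30 FPKM.

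The most abundant transcript was Mrps21, whose product belongs to the small subunit, at 536 FPKM with overexpression and 485 FPKM in controls. Mrpl42, of the large subunit, followed at 519.7 FPKM with overexpression and 442 FPKM in controls. Mrpl52 had 448 and 415 FPKM and Mrpl33, a relative of a bacterial large-subunit protein, 396 and 375 FPKM, overexpression first. Mrpl20, whose bacterial relative takes part in early folding of the large-subunit RNA, had 331 FPKM with overexpression and 345 FPKM in controls. These 5 genes made up 23.5% of the summed FPKM with overexpression and 21.7% in controls, and none of them was called (q from 0.387 to 0.864 in the authors' deposited table). At the other end, Mrps30 and Mrps26 were the 2 least abundant members.

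**Figure D2:**
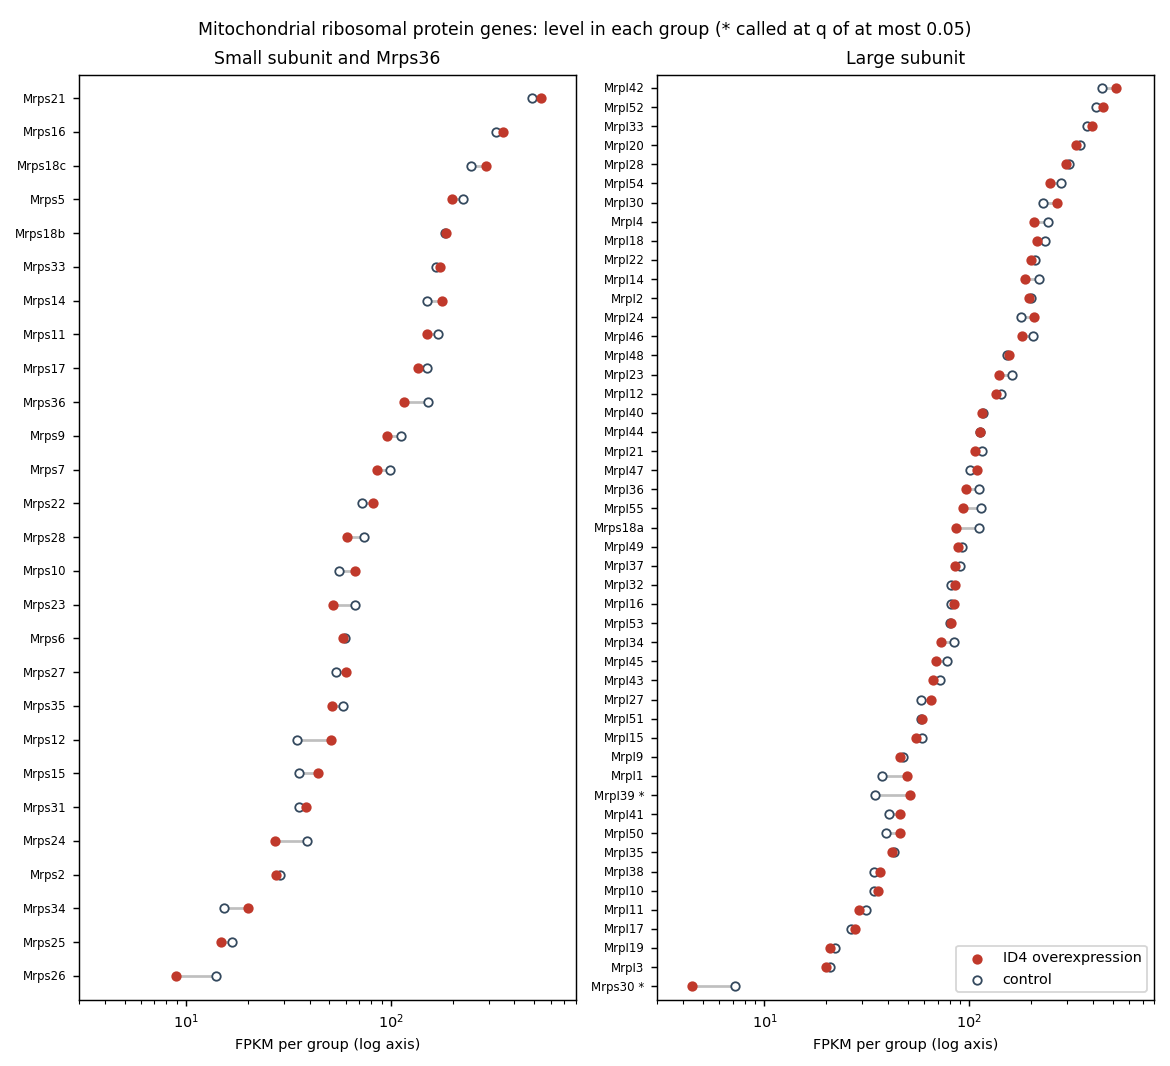
FPKM of each of the 75 genes (horizontal log axis) with ID4 overexpression (filled red points) and in controls (open points), 1 value per group, split by ribosomal subunit and ordered by mean level, with Mrps36 drawn beside the small subunit. Most pairs of points nearly coincide from the most abundant gene, Mrps21 (536 and 485 FPKM), downwards, and an asterisk marks the called genes Mrpl39 and Mrps30.

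Mrpl39 was the called gene with the higher level under overexpression. It encodes a large-subunit protein with no counterpart in bacteria that is related in sequence to aminoacyl-tRNA synthetases. Its level was 51.6 FPKM with overexpression and 34.5 FPKM in controls (log2 0.58; q = 0.00666 in the authors' deposited table). The gene lies on the minus strand of chromosome 16, 84717580 to 84735302 of GRCm38, and overlaps no other protein-coding gene of the GENCODE M21 annotation.

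Mrps30 was the called gene with the lower level. Despite its small-subunit name, structures of the mammalian mitochondrial ribosome place its product in the large subunit, where it also lacks a bacterial counterpart. Its level was 4.43 FPKM with overexpression and 7.18 FPKM in controls, a log2 fold change of -0.70, and q was 0.0421 in the authors' deposited table. It is the least abundant of the 75 genes, and the call is lost at a q threshold of 0.01. The locus, on the minus strand of chromosome 13 (118380110 to 118387252), overlaps the opposite-strand gene B430218F22Rik, for which no deposited value was found. The length of the overlap was not measured, and whether counting used strand is not given in the sources used here. Whether reads from the shared stretch were told apart is therefore unknown.

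Some genes lay close to the threshold without passing it. Mrps12, the small-subunit protein of the decoding centre that monitors codon and anticodon pairing, had 51.1 FPKM with overexpression and 34.7 FPKM in controls (log2 0.56; q = 0.0559 in the authors' deposited table). Mrps26, a small-subunit protein gained by mitochondria, had 8.96 FPKM with overexpression and 13.9 FPKM in controls (log2 -0.63; q = 0.0723 in the authors' deposited table). Mrps24, a small-subunit protein related to the bacterial protein at the messenger RNA entry channel, had 27.0 FPKM with overexpression and 39.0 FPKM in controls (log2 -0.53; q = 0.0725 in the authors' deposited table). Mrps36 and Mrps18a came next (q = 0.101 and 0.118 in the authors' deposited table), both with negative values. Mrpl1, of the stalk near the tRNA exit site, was named because it had the next largest positive value after Mrps12 among uncalled genes, with 49.8 and 37.6 FPKM, overexpression first (log2 0.41).

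**Figure D3:**
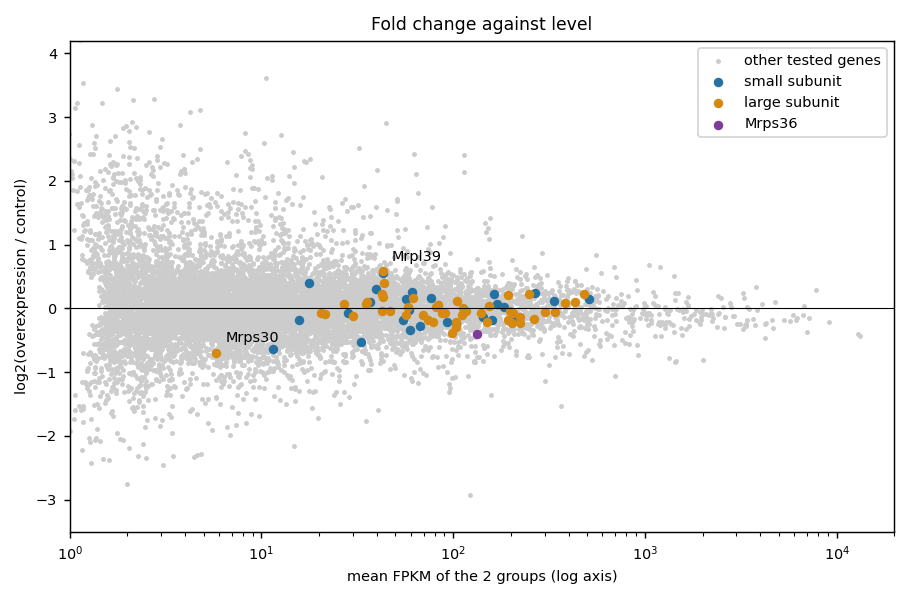
Log2 of overexpression FPKM over control FPKM (vertical axis) against mean FPKM of the 2 groups (horizontal log axis) for every tested gene (grey, with 19 genes beyond the axes) and for the 75 genes, coloured by subunit. The coloured points lie in a narrow band around 0 between -0.70 (Mrps30) and 0.58 (Mrpl39), inside the wider grey cloud.

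Both subunits held genes on either side of 0. The 26 small-subunit genes had 0 higher and 0 lower calls, with a median log2 fold change of 0.00 and values from -0.63 to 0.56; 13 lay above 0 and 13 below, and 4 had an unadjusted p of 0.05 or less in the authors' deposited table. The 48 large-subunit genes had 1 higher and 1 lower call and a median of -0.05, with 20 above 0 and 28 below and 4 at an unadjusted p of 0.05 or less. Summed FPKM was 3040.6 with overexpression and 2967.0 in controls for the small subunit, and 6313.9 and 6373.5 for the large one. The 47 genes with a bacterial relative had a median of -0.06 and 0 calls (4 at an unadjusted p of 0.05 or less in the authors' deposited table), and the 27 without one a median of 0.03 and 1 call in each direction, Mrpl39 and Mrps30 (4 at an unadjusted p of 0.05 or less). The difference between these classes was not tested. Of all tested genes, 17.0% were called and 28.2% had an unadjusted p of 0.05 or less in the authors' deposited table. The remaining gene, Mrps36, is now counted as a component of the 2-oxoglutarate dehydrogenase complex of the citric acid cycle and not as a ribosomal protein. It had 115 FPKM with overexpression and 152 FPKM in controls (log2 -0.40; q = 0.101 in the authors' deposited table).

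No gene of the functional sites taken up next was called; the sites were picked out after the values were seen. At the stalk where translation factors bind, Mrpl12, a relative of the bacterial stalk protein, had 135 FPKM with overexpression and 143 FPKM in controls. Its anchor Mrpl10 had 35.8 and 34.1 FPKM and the stalk-base protein Mrpl11 28.9 and 31.2 FPKM, overexpression first. Near the peptidyl transferase centre, where peptide bonds form, Mrpl2 had 195 and 201 FPKM, Mrpl3 19.9 and 20.8 FPKM, Mrpl16 84.6 and 81.5 FPKM and Mrpl27 64.7 and 58.1 FPKM, again overexpression first. None of these 7 genes was called, and the largest log2 fold change among them was the 0.16 of Mrpl27.

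Around the tunnel through which new proteins leave, Mrpl22 had 199 FPKM with overexpression and 209.9 FPKM in controls, Mrpl23 139 and 162 FPKM, and Mrpl24 207 and 179 FPKM. Mrpl45, which ties the ribosome to the inner mitochondrial membrane, had 69.0 FPKM with overexpression and 77.9 FPKM in controls. In the central protuberance, the crown of the large subunit, Mrpl18, Mrpl38, Mrpl40, Mrpl46, Mrpl48 and Mrpl55 had log2 fold changes of -0.13, 0.10, -0.03, -0.18, 0.03 and -0.29, and none was called. Mrpl44, a protein with a ribonuclease III fold, had 113 FPKM in both groups, the ratio nearest 1 among the 75 genes.

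The genes related to the bacterial protein S18 form a small family of 3. Mrps18a, whose product sits in the large subunit, had 85.9 FPKM with overexpression and 112 FPKM in controls (log2 -0.38; q = 0.118 in the authors' deposited table). Mrps18b had 186 FPKM with overexpression and 183 FPKM in controls, and Mrps18c had 290.2 and 245 FPKM (log2 0.03 and 0.24). Both are small-subunit proteins. In each group of samples Mrps18c was the most abundant of the family and Mrps18a the least, and none of them was called.

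By position the genes were scattered over 16 chromosomes. Chromosome 11 held the most, 10 genes with a median log2 fold change of -0.13, 7 of them below 0 and none called (2 had an unadjusted p of 0.05 or less in the authors' deposited table). The shares over all tested genes were 17.0% called and 28.2% at that unadjusted threshold. Chromosome 17 held 8 with a median of -0.05. The gene on chromosome 15, Mrpl13, is outside the group by definition; it had 71.5 FPKM with overexpression and 124 FPKM in controls, was called lower (log2 -0.80; q = 8.35e-04 in the authors' deposited table), and was further from 0 than any of the 75.

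Many of the genes share a start region with a neighbour. Of the 75, 31 have a protein-coding gene whose annotated start lies on the opposite strand within 1000 bases, and 19 overlap another protein-coding gene somewhere along their locus. For 30 of the 31 the neighbour is listed in the table, 1 of them under an older symbol. Of these neighbours 29 were tested, 2 of which are themselves among the 75 genes (Mrpl46 and Mrps11). Among the 29, 2 were called, while 17.0% of all tested genes were. The called ones were Oaz3, an antizyme of spermatids that overlaps Mrpl9, with 7.10 FPKM with overexpression and 2.36 FPKM in controls, and Ppp1r10, a phosphatase regulator beside Mrps18b, with 9.58 and 6.08 FPKM. Mrpl9 and Mrps18b themselves had log2 fold changes of -0.04 and 0.03. Mrps12, close to the threshold with a log2 fold change of 0.56, lies beside Sars2, which encodes the mitochondrial seryl-tRNA synthetase and had -0.06. In the table Mrpl46 ends at 78783089 of chromosome 7 and Mrps11 begins at 78783131, which leaves 41 bases between the listed loci of a large-subunit and a small-subunit gene, while their starts in the GENCODE M21 annotation lie 412 bases apart with the 2 genes overlapping. Mrpl46 had 181 FPKM with overexpression and 204 FPKM in controls, and Mrps11 149.9 and 169.6 FPKM, so that both had a log2 fold change of -0.18. Mrps6 shares its whole listed locus with Slc5a3, and how reads were divided between them is not given in the sources used here. Another 8 of the 75 genes share a listed locus in the same way.

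Promoter sequences are shown for 5 of the genes because the deposited values turn on the first 3, the next is the start region shared by 2 members, and the last has the most matches to NRF1. They are RefSeq sequences of build GRCm38.p6, running from 250 bases before the start site to 50 bases after it, 5′ to 3′ in the direction of transcription. Capitals mark a match, on either strand, to one of 5 short motifs: CGCATGCG, the core of the site of NRF1 (nuclear respiratory factor), CCGGAAG, bound by ETS factors such as GABP, AAGATGGC, bound by YY1, and the E-boxes CACGTG, bound by MYC and its relatives, and CAGCTG, bound by E proteins and their partners, the class of factors that ID proteins sequester.
Mrpl39, chr16:84735195-84735494, minus strand: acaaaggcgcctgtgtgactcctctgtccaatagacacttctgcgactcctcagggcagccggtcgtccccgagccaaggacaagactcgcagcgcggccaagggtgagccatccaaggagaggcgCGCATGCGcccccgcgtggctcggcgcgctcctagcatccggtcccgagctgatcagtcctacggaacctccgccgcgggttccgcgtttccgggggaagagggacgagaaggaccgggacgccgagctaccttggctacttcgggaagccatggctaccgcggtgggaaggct
Mrps30, chr13:118387203-118387502, minus strand: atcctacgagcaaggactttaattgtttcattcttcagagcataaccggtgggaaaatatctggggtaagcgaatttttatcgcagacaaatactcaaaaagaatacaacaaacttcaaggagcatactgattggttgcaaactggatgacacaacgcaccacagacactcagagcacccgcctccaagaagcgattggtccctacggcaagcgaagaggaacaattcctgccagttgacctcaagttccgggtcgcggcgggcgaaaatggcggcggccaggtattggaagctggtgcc
Mrps12, chr7:28741772-28742071, minus strand: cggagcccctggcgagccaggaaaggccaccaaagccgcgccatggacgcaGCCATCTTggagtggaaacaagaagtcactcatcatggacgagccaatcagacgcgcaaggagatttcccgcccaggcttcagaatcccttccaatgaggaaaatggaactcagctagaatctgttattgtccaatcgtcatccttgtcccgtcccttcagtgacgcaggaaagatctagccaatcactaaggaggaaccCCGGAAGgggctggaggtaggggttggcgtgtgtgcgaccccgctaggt
Mrps11, chr7:78782881-78783180, plus strand: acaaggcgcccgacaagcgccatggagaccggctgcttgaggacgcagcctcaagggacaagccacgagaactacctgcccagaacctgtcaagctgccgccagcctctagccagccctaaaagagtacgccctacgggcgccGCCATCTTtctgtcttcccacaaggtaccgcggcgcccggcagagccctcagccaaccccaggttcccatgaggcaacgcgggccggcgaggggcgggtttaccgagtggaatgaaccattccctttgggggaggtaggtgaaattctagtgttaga
Mrpl32, chr13:14612988-14613287, minus strand: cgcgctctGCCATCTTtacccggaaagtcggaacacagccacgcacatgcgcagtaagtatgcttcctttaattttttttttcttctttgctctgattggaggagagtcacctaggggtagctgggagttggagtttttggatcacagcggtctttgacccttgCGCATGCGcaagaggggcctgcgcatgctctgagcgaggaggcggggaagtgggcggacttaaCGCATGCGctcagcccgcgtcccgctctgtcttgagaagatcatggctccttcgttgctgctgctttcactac

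Mrpl39 thus has 1 NRF1 core beginning at base -124 from its start site, and Mrps30 has none of the 5 motifs in its window. Mrps12 has an ETS motif at base 2 and a YY1 motif at base -199. The window of Mrps11, which reaches into Mrpl46 on the other strand, has a YY1 motif at base -107. Mrpl32, whose product is a large-subunit protein matured by a protease of the inner membrane, has NRF1 cores at bases -86 and -23 and a YY1 motif at base -242. Its level was 84.9 FPKM with overexpression and 81.7 FPKM in controls.

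A promoter window was found for 67 of the 75 genes, and in 62 its start site lay within 100 bases of the 5′ end of the listed locus. The farthest were those of Mrpl48, 32967 bases away, and Mrpl53, 7592 bases away. The ETS motif was present in 23 (34.3%), against 20.8% of the 8154 windows of tested genes. The YY1 motif was present in 12 (17.9% against 5.24%), and in 8 of these it lay after the start site, between bases 12 and 37. The NRF1 core was present in 7 (10.4% against 4.66%), always before the start site. The MYC-type E-box was present in 5 (7.46% against 11.4%) and the E-protein-type E-box in 10 (14.9% against 14.1%). These shares describe letters in a window, not binding, and their differences were not tested. The median log2 value was 0.03 with and -0.05 without the ETS motif, -0.07 and -0.03 for YY1, 0.05 and -0.05 for NRF1, -0.06 and -0.03 for the MYC-type E-box, and -0.03 and -0.04 for the E-protein-type E-box.

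**Figure D4:**
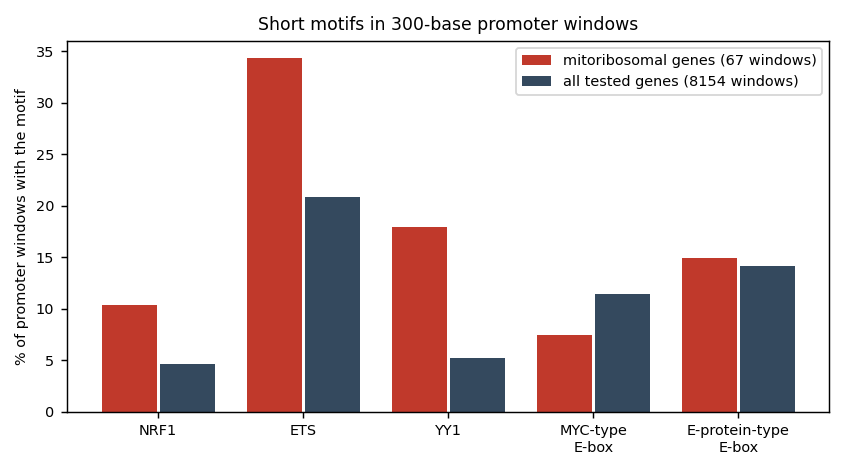
Percentage of promoter windows (vertical axis, from 0) that hold each of 5 short motifs, for mitochondrial ribosomal protein genes (red, 67 windows) and all tested genes (dark, 8154 windows). The ETS, YY1 and NRF1 bars are higher for the ribosomal protein genes (34.3%, 17.9% and 10.4%), and the bars of the 2 E-box types are lower or nearly level (7.46% and 14.9%).

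Further subunits of the mitochondrial ribosome carry names outside the Mrpl and Mrps series. Of these 7, 3 had an unadjusted p of 0.05 or less in the authors' deposited table, beside 28.2% of all tested genes. At the q threshold 1 was called, in the higher direction (14.3%, beside 17.0% of all tested genes). This was Mrp63, a large-subunit gene, with 23.9 FPKM with overexpression and 16.0 FPKM in controls (log2 0.58; q = 0.0132 in the authors' deposited table). Ict1, a peptide-release factor built into the large subunit, had 141 FPKM with overexpression and 106 FPKM in controls, and Chchd1 of the small subunit 132 and 97.2 FPKM; both were uncalled (q = 0.0854 and 0.0814 in the authors' deposited table). Ptcd3 and Gadd45gip1 had log2 fold changes of 0.21 and 0.23, and Dap3, a GTP-binding small-subunit protein, and Aurkaip1 had -0.28 and -0.20. The median of the 7 was 0.23, above that of the 75 genes, but 7 genes are few and the difference was not tested.

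Other genes of mitochondrial translation are given beside the 17.0% of all tested genes that were called and the 28.2% with an unadjusted p of 0.05 or less in the authors' deposited table. Of 14 tested translation factors, none was called in either direction and the median log2 fold change was -0.09 (0 calls, while 1 had an unadjusted p of 0.05 or less in the authors' deposited table). By mean FPKM of the 2 groups the most abundant were Tufm, the elongation factor that delivers tRNA, with 145 FPKM with overexpression and 168 FPKM in controls, and Mrrf, which recycles the ribosome, with 34.7 and 39.3 FPKM. Of 18 tested mitochondrial aminoacyl-tRNA synthetases and amidotransferase subunits, 1 was called, in the higher direction (5.56%), the median was -0.06, and 4 had an unadjusted p of 0.05 or less in that table. It was Rars2, the arginyl-tRNA synthetase, with 59.0 FPKM with overexpression and 41.5 FPKM in controls. Of 28 tested factors of ribosome assembly and RNA modification, 2 were called, both lower (7.14%), the median of this list was -0.05, and 5 had an unadjusted p of 0.05 or less. The lower ones were Mrm1, which methylates the large ribosomal RNA, with 1.24 and 2.57 FPKM, and Rbfa, which acts in small-subunit maturation, with 13.4 and 21.6 FPKM, overexpression first.

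Among 17 tested genes that copy, transcribe and process the mitochondrial genome, 1 was called higher and 2 lower around a median of -0.04; 17.6% were called, close to the 17.0% of all tested genes. Trmt10c, a subunit of mitochondrial RNase P, had 54.5 FPKM with overexpression and 36.3 FPKM in controls (log2 0.59). Hsd17b10, another subunit of the same enzyme, had 39.1 FPKM with overexpression and 57.1 FPKM in controls (log2 -0.55), and the RNA helicase gene Supv3l1 had 6.68 and 11.2 FPKM (log2 -0.75). Genes encoding regulators of mitochondrial biogenesis gave 0 calls in either direction of 10 tested, with a median of 0.06 (1 with an unadjusted p of 0.05 or less in the authors' deposited table). Nrf1 had 42.7 FPKM with overexpression and 39.0 FPKM in controls, and the coactivator Pprc1 48.2 and 40.3 FPKM. The authors did not test 4 others, Esrra, Myc, Ppargc1a and Ppargc1b, each below 1 FPKM in both groups. Transcripts of the mitochondrial genome itself are not analysed here.

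**Figure D5:**
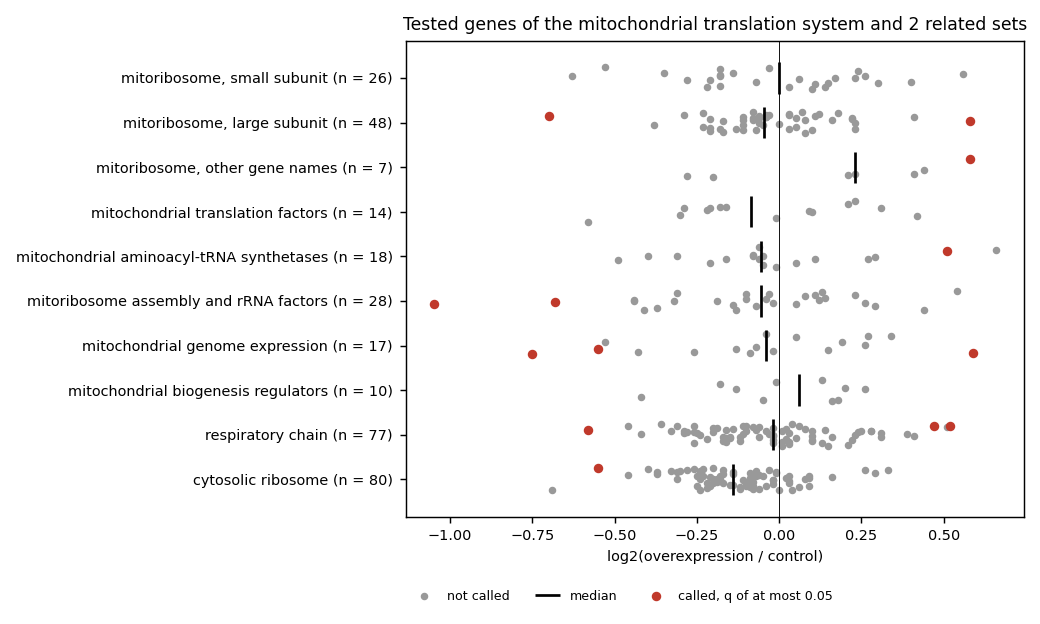
Log2 of overexpression FPKM over control FPKM (horizontal axis) for tested genes of the mitochondrial translation system and of 2 related gene sets, 1 point per gene with random vertical spread, red where called, with the median of each row as a black bar. Medians lie within 0.14 of 0 in every row except that of the 7 subunits of other names (0.23).

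The 2 most similar gene sets were set beside the 75 genes. Of 77 tested genes of the respiratory chain and ATP synthase outside chromosome 15, the calls were Ndufb6 and Uqcrc1 (higher) and Uqcrh (lower), 3.90% in all, around a median log2 fold change of -0.02. Of 80 cytosolic ribosomal protein genes outside that chromosome, the 1 call (1.25%) was Rpl22l1 (lower), and the median was -0.14, with 66 of 80 below 0. Of all tested genes, 17.0% were called. The summed FPKM of the cytosolic set was 197590.4 with overexpression and 219498.3 in controls, a ratio of 0.900, beside 0.998 for the mitochondrial ribosome. The SD of the log2 fold change over genes was 0.23 for the respiratory set and 0.17 for the cytosolic set, beside 0.23 for the 75 genes. The narrow scatter was thus not particular to the mitochondrial ribosome. Whether the sets differ was not tested.

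The composition of the samples bears on how these levels are read. Id4 had 13.4 FPKM with overexpression and 6.37 FPKM in controls (log2 1.08; called). Of the 5 general germ-cell markers examined, 0 were called, also at an unadjusted p of 0.05 in the authors' deposited table, and their summed level was 1437.9 FPKM with overexpression and 1585.9 FPKM in controls. Macrophage markers were called higher in 13 of 14 tested genes, with a summed level of 334.0 FPKM with overexpression and 89.4 FPKM in controls. Sertoli cell markers were called higher in 6 of 9 tested (345.5 and 179.0 FPKM), and Leydig cell markers in 4 of 5 (73.0 and 26.2 FPKM). The uncalled tested markers of these lists also had log2 fold changes above 0. Of all tested genes, 9.59% were called higher and 7.42% lower. Of 10 markers of undifferentiated spermatogonia, Gfra1 was called higher and Lin28a, Uchl1 and Utf1 were called lower, and the list summed to 790.6 FPKM with overexpression and 1008.8 FPKM in controls. Markers of differentiating spermatogonia were called lower in 5 of 6 genes, with 290.1 and 462.8 FPKM in sum. Those of spermatids were called higher in 5 of 5 tested (314.0 and 79.4 FPKM). No macrophage marker was at 0 in either group (1.62 to 77.8 FPKM with overexpression, 0.188 to 24.1 FPKM in controls), and the Sertoli marker Amh had 0.0366 and 0.113 FPKM. In such bulk samples, fewer cells of a type and less RNA per cell cannot be told apart, and the part these cell types play in the levels of the mitochondrial ribosomal protein genes was not tested.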

How the data were processed

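RNA was sequenced from reporter-selected spermatogonia of 6 mouse samples, 3 with ID4 overexpression and 3 controls, grouped by title. The labels' protocols name Trizol for extraction and oligo d(T) priming for the libraries. The submitters' processing notes name TopHat, Cufflinks and build mm9; versions are not given in the sources used here. All 75 loci overlap the GRCm38 gene of the same name in GENCODE M21, so positions are printed as GRCm38, 1-based.

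The deposited table holds FPKM, 1 value per group, made by the authors over 3 replicates. The scaling between libraries, and any use of strand, are not given in the sources used here. It also holds the authors' p-value and q-value per gene, with a status: 10990 of 23355 entries were tested, 5 of them listed at 0 in a group and left without a fold change. The q-values differ by at most 4.77e-05 from a Benjamini-Hochberg adjustment of the p-values over tested entries. Sample-level values were not used here, so no model was refitted and no samples were left out in turn.

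Fold changes are the ratio of overexpression FPKM to control FPKM, without a pseudocount, computed with pandas 2.3.3 and numpy 2.4.6 in Python 3.11.15. A gene was called at a deposited q of 0.05 or less with status OK. The adjustment and the motif search were tested on simulated data. One promoter window per gene was used, the one nearest the 5′ end of the listed locus. Named genes are the called members, the 5 most abundant, the 3 uncalled with the smallest q, the 2 uncalled with the largest values in each direction and the Mrps18 family; from the other lists, up to 4 called members, or the 2 most abundant. Others were named after their values were seen. The members and lists were chosen with earlier results of these data known.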

Additional observations from a re-analysis of the deposited data

How the results depend on the processing

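Between 1 and 5 of the 75 genes were called under the other q thresholds. At a q threshold of 0.01 there were 1 higher and 0 lower, and at 0.1 there were 2 higher (Mrps12 added) and 3 lower (Mrps26 and Mrps24 added), while all tested genes gave 664 higher and 450 lower at 0.01, in place of 1054 and 815. Of the 75 genes, 6.67% were called at 0.1, against 22.1% of all tested genes. Restricted to entries that reach 10 FPKM in at least 1 group, Mrps30 drops out and the lower count is 0, with 543 higher and 448 lower among all tested genes; it is also 0 without the members that overlap another protein-coding gene. Adding the 7 subunits of other names gives 2 higher. The last 2 alternatives were chosen after seeing the data. The other 47 of the 57 comparisons of counts, medians and the summed ratio stayed within 1.5 times the count or within 0.1 of the median (log2). Some of these could not differ by design. All 75 genes were tested and exceeded 1 FPKM, so limits to tested or expressed entries at or below that level left them unchanged. The chromosome 15 gene was added to the large subunit only, so the small subunit stayed the same. None of the 14 members named by the rule changed sign after subtracting the median of all tested genes. A pseudocount cannot change a sign. No paired analysis was possible because the table holds 1 value per group. Leaving out replicates and other tools need values per sample and were not run. With depth unknown, FPKM of the least abundant genes, Mrps30 and Mrps26, rests on the fewest fragments per base of transcript.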
